A study of Mus musculus with 32 samples.

Results

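Cadherins and catenins are the proteins of the adherens junction, and 8 of their genes were followed here in mouse epidermis with and without ultraviolet (UV) exposure. The 4 cadherin genes were Cdh1 (E-cadherin), Cdh3 (P-cadherin), Cdh4 (R-cadherin) and Cdh13 (T-cadherin), and the 4 catenin genes were Ctnna1 (alpha-catenin), Ctnnb1 (beta-catenin), Ctnnd1 (p120-catenin) and Jup (plakoglobin). They were taken by symbol from 55401 gene identifiers, and they were chosen by the measured UV response of the wild-type mice, in which Cdh4 lost nearly all its reads. All 8 were among the 15546 genes that reached 1 cpm in some mouse, the filter used here, where cpm is the read count of a gene scaled to the size of the library. Cdh4 passed it through the mice that had no UV, since none of the mice given UV reached that level.

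RNA sequencing had been done on epidermis separated from the dermis of dorsal skin, 1 library per mouse, from 32 SKH-1/SV129/BL6/J mice that were 10 to 14 weeks old. The labels give a single range of RNA quality for all mice, lower than the range in the study's methods. Quality could therefore not be set against the values of single mice. Wild-type mice and littermates labelled Ppard-/-, which lack the nuclear receptor PPARbeta according to the labels, were either handled as a sham control or given a single UV dose of 120 mJ/cm2, which does not redden the skin. The labels put the UV mice at 24 h after the dose and all control mice at T0, so treatment and time label go together. Each of these 4 conditions held 4 male and 4 female mice, so that every group below has 8 mice unless a sex is named. Values are cpm scaled by the TMM method (trimmed mean of M values), and log2 fold changes with their standard errors (SE) come from edgeR's quasi-likelihood model fitted to all 32 mice. A gene is called when its P value, adjusted over all genes tested by the Benjamini-Hochberg method, is under 0.05. The wild-type UV values of the members are given as a description, without a test, because they guided the choice. Only RNA was measured here, so a protein name in a result stands for the RNA of its gene.

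Classical cadherins span the cell membrane, and their outer domains bind cadherins of the neighbouring cell. Their inner tail binds p120-catenin, which keeps the cadherin at the membrane, and beta-catenin or its close relative plakoglobin, which bring in alpha-catenin and through it the actin filaments. Beta-catenin also works in the nucleus as the effector of Wnt signalling, and plakoglobin is in addition a core part of desmosomes. In the epidermis E-cadherin is present in all living layers, P-cadherin is known for the basal layer and the hair follicle, and T-cadherin is an unusual family member that is held at the membrane by a lipid anchor and has no tail for catenins.

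That difference can be read in the genes. The last 120 coding bases of the 4 cadherin genes, stop codon included, are shown because they encode the end of the catenin-binding tail in Cdh1, Cdh3 and Cdh4 and a different end in Cdh13. They come from GENCODE M21 transcripts (build GRCm38, plus strand), at chr8:106668496-106668615 for Cdh1, chr8:106555331-106555450 for Cdh3, chr2:179895799-179895918 for Cdh4 and, across an intron, chr8:119314083-119323402 for Cdh13. Capitals mark the bases that Cdh1, Cdh3 and Cdh4 share when the sequences are aligned at their last base without gaps.
Cdh1: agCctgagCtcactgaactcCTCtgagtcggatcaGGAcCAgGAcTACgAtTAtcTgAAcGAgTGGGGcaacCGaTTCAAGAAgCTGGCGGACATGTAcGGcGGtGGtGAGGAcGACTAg
Cdh3: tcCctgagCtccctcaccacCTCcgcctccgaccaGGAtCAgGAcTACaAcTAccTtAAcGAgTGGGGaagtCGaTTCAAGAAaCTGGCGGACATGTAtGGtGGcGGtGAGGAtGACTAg
Cdh4: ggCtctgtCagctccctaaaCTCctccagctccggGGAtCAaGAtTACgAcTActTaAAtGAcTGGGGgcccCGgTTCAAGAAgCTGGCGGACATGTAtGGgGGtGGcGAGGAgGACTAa
Cdh13: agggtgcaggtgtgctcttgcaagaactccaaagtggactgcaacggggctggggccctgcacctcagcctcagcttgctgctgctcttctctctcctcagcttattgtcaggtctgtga
Of the 120 bases, 68 were the same in all 3 classical cadherins. Cdh1 matched Cdh3 at 96 bases, Cdh4 at 73 and Cdh13 at 35.

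Cdh3 (ENSMUSG00000061048, chr8:106510891-106557297) and Cdh1 (ENSMUSG00000000303, chr8:106603351-106670246) lie side by side on the same strand of chromosome 8 in GRCm38, and Cdh13 (ENSMUSG00000031841) lies further along it. Cdh4 (ENSMUSG00000000305) and Ctnnd1 (ENSMUSG00000034101) are on chromosome 2, Ctnnb1 (ENSMUSG00000006932) is on chromosome 9, Jup (ENSMUSG00000001552) on chromosome 11 and Ctnna1 (ENSMUSG00000037815) on chromosome 18. No other annotated gene overlaps Cdh1, Cdh3 or Jup. Cdh4, Cdh13, Ctnna1, Ctnnb1 and Ctnnd1 each overlap at least 1 other gene, and the strand setting of the read counting is not given in the sources used here, so some reads of these 5 genes could belong to the neighbour or have been set aside as ambiguous.

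Between 22919428 and 40653581 reads per mouse fell on genes, so that 1 read is worth well under 0.1 cpm. Ppard, the gene named in the genotype, still gave reads in the mice labelled Ppard-/-, at 70.3 to 88.9 cpm without UV against 87.3 to 105 cpm in wild-type controls. The difference in controls was -0.26 on the log2 scale (SE 0.07, adjusted P value 0.156, edgeR), and a count over the whole gene cannot show which part of it was deleted. After UV it was -0.42 (SE 0.07, adjusted P value 0.00114). The basal keratinocyte markers Krt5, Krt14, Col17a1, Itga6 and Itgb4 summed to at least 5197 cpm in every mouse. Markers of tissue other than epidermis set some libraries apart. The UV-treated Ppard-/- female 54F had a sum of 1982 cpm over the 6 fibroblast markers Col1a1, Col1a2, Col3a1, Dcn, Lum and Pdgfra, while the other 31 mice had between 1.73 and 92.2 cpm. Muscle RNA varied more widely. The 5 skeletal muscle markers Acta1, Myh4, Ckm, Mylpf and Tnnt3 summed to over 1000 cpm in 9 mice, namely 63F and 71F of the wild-type controls, 38M and 59F of the wild-type UV mice, 44F and 60F of the Ppard-/- controls and 52F, 54F and 58M of the Ppard-/- UV mice, at 1119 to 2567 cpm. The other 23 mice had 3.715 to 558.8 cpm. Tests of the members in Ppard-/- mice after UV are given below for all mice, without 54F and in the 23 mice with low muscle markers, a set chosen after the data were seen.

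In unexposed wild-type epidermis, the members spanned a wide range of levels once cpm were divided by exon length in kilobases. Jup was highest at 412 ± 35.2 cpm per kb (SD, n = 8), and Cdh1 followed at 205 ± 22.6. Ctnnb1 (110 ± 5.41) and Ctnna1 (62.5 ± 3.26) came next, ahead of Ctnnd1 (10.9 ± 0.852) and Cdh3 (10.7 ± 2.94), which did not differ beyond their spread. Cdh13 was lower at 4.01 ± 1.54 cpm per kb, and Cdh4 was at 0.406 ± 0.114. After UV the order changed at the bottom of the list. In wild-type mice Cdh3 reached 26.4 ± 3.28 cpm per kb and stood above Ctnnd1 at 12.6 ± 1.16, while Cdh13 was at 0.146 ± 0.0938. Lengths were taken over all annotated exons, so levels of different genes are comparable only roughly.

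**Figure D1:**
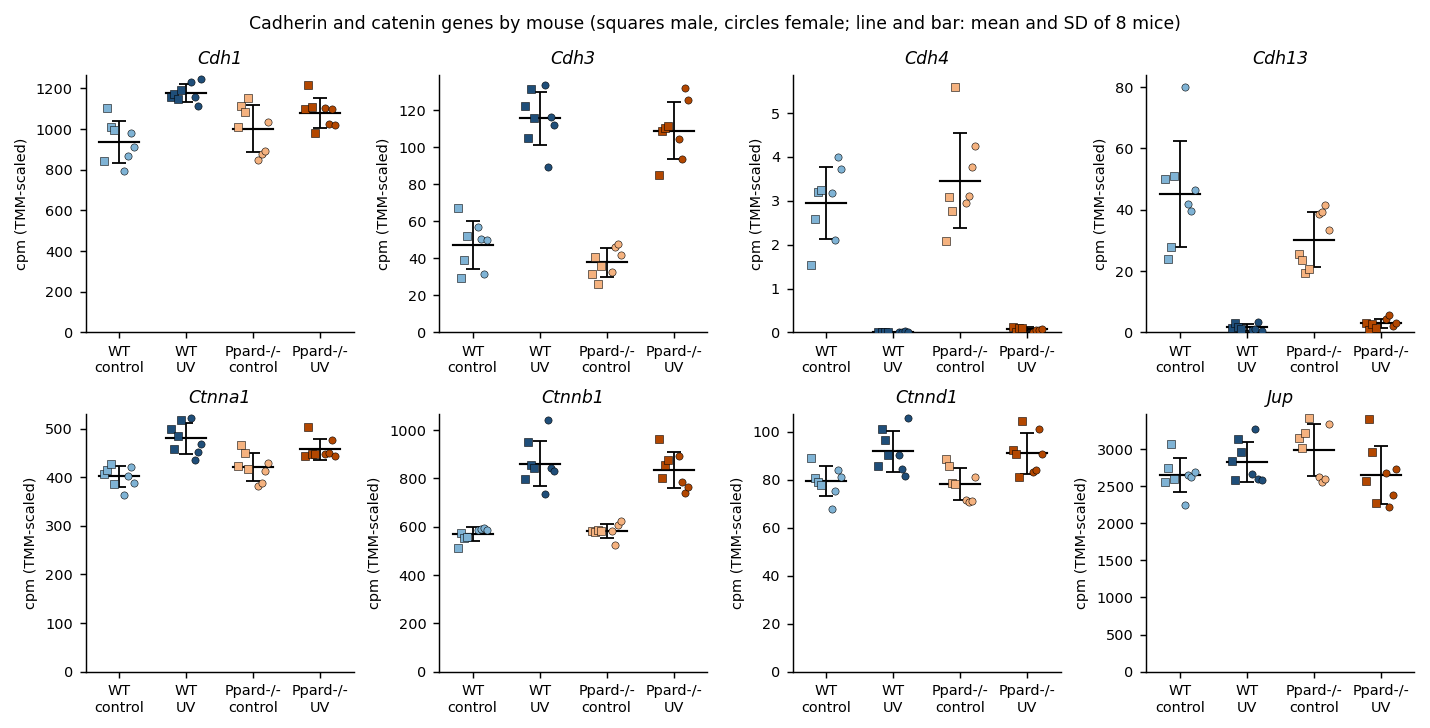
Cpm of each of the 8 genes (vertical axes, linear, starting at 0) in every mouse, by genotype and treatment (horizontal axes), with males as squares, females as circles, and the mean and SD of 8 mice as a line and bar. Cdh3 and Ctnnb1 sit higher after UV in every mouse of both genotypes, Cdh4 and Cdh13 sit lower, and Jup overlaps between all groups.

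Of the RNAs of the 2 cadherins that keratinocytes use most, Cdh3 (P-cadherin) changed far more than Cdh1 (E-cadherin). Cdh3 ranged from 25.9 to 47.9 cpm (median 38.1) in Ppard-/- controls and from 85.0 to 132 cpm (median 110) in Ppard-/- mice after UV, so every UV mouse lay above every control. The log2 fold change was 1.53 (SE 0.14, 95% confidence interval 1.24 to 1.83, adjusted P value 2.30e-10, edgeR), which is 2.88-fold on the means. It was 1.59 without 54F and 1.63 in the 23 mice with low muscle markers, called in both. Wild-type mice went from 29.5 to 67.2 cpm (median 49.95) without UV to 89.2 to 134 cpm (median 116) with UV, a log2 fold change of 1.30 (SE 0.14). Each sex of each genotype showed the same separation, with ratios of the means between 2.40 in wild-type females and 3.10 in Ppard-/- males.

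Markers of the layers of the epidermis moved as well. The summed basal keratinocyte markers were 5197 to 11720 cpm in Ppard-/- controls and 16580 to 28930 cpm after UV, and 4 of the 5 genes were higher, with Krt5 not called. In wild-type mice Krt14, Itga6 and Itgb4 were higher, Krt5 was lower (-0.50, adjusted P value 0.0157) and Col17a1 was not called (-0.21). All 5 suprabasal markers tested (Krt1, Krt10, Krtdap, Lor and Flg) were lower in both genotypes. In bulk epidermis, a change in the number of cells of a layer and a change in RNA per cell cannot be told apart, and the part these lists have in the Cdh3 value was not tested.

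Cdh1 RNA (E-cadherin) was higher in every wild-type UV mouse than in the wild-type controls, and in Ppard-/- mice it was not called. Wild-type controls had 793 to 1106 cpm of Cdh1 (median 948) and UV mice 1113 to 1246 cpm (median 1166), without overlap, a log2 fold change of 0.33 (SE 0.06). In Ppard-/- mice the controls had 849 to 1155 cpm (median 1023) and the UV mice 979 to 1218 cpm (median 1099). Here 7 of the 8 UV mice fell within the range of the controls. The log2 fold change of 0.11 (SE 0.06, interval -0.01 to 0.23) was not called at an adjusted P value of 0.0812. Leaving out any 1 of 6 mice, 54F among them, made it called (without 54F 0.14, adjusted P value 0.0430), and in the 23 mice with low muscle markers it was 0.08 (adjusted P value 0.387). The spread between mice was also unequal, since the SD was 3.81% of the mean in UV-treated wild-type mice and 11.01% in their controls.

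Cdh4 was nearly lost from the libraries after UV. R-cadherin is best known from the retina, brain and kidney, and the wild-type control mice had 1.53 to 4.00 cpm (median 3.18), from 42 to 108 reads per library. After UV, 7 of 8 wild-type mice had no read and the female 59F had 1. Ppard-/- controls had 2.08 to 5.597 cpm (median 3.09), from 52 to 209 reads, and their UV mice had between 0 and 3 reads, with 2 of 8 at 0. Every UV mouse of both genotypes therefore lay at or under a floor of 3 reads per library. Against the highest such floor, 0.116 cpm in wild-type and 0.125 cpm in Ppard-/- mice, mean Cdh4 was at least 25.5-fold lower after UV in wild-type mice and at least 27.6-fold lower in Ppard-/- mice. These limits take every UV library at the floor of 3 reads, which some Ppard-/- mice reached. They are not confidence limits and do not allow for the spread between mice. The UV libraries held 1 Cdh4 read in all over the wild-type mice and 15 over the Ppard-/- mice, and no fold between the genotypes is given because both groups lie under the floor. These Cdh4 levels are among the values that chose the gene.

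Cdh13 RNA (T-cadherin) fell too, from a higher starting level and without reaching 0. Ppard-/- controls had 19.2 to 41.7 cpm of Cdh13 (median 29.6) and Ppard-/- mice after UV 0.830 to 5.68 cpm (median 2.83), and the groups were far apart. The log2 fold change was -3.39 (SE 0.32, interval -4.05 to -2.74, adjusted P value 2.54e-10, edgeR), and it was -3.51 without 54F and -3.79 in the 23 mice with low muscle markers. Wild-type controls had 23.9 to 80.1 cpm (median 44.1) and wild-type UV mice 0.552 to 3.28 cpm (median 1.34), a log2 fold change of -4.78 (SE 0.34). Every UV library kept some Cdh13 reads, from 16 in the lowest wild-type mouse to 196 in 54F.

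Cdh13 is also known from vessels and other cells of the dermis, so the markers of other cell types stand beside it. The summed fibroblast markers were 1.73 to 8.44 cpm in wild-type and 5.999 to 1982 cpm in Ppard-/- mice after UV, or at most 30.0 cpm without 54F, and all 6 were called higher in Ppard-/- than in wild-type mice, or 0 of 6 without 54F. The 6 endothelial markers summed to 1.74 to 7.40 cpm and 1.96 to 56.95 cpm in these groups, and none of either list was at 0 throughout a group. Between UV mice and controls, 3 of the 6 endothelial markers were called higher and 1 lower in wild-type mice. In Ppard-/- mice 3 were called higher and 0 lower, or 2 higher without 54F. Of the 6 fibroblast markers, 3 were called lower in wild-type mice and 0 in Ppard-/- mice, or 3 lower without 54F. The 6 melanocyte markers, pigment cells being another possible source of cadherins, summed to at most 13.4 cpm in any mouse. The 54F library, with the highest fibroblast sum, also had the highest Cdh13 value of all UV mice. Muscle RNA went with Cdh13 among the UV mice. The wild-type mice highest in Cdh13 were 59F (3.28 cpm) and 38M (3.16 cpm), which had 1623 and 2242 cpm of muscle markers against at most 36.3 cpm in the other 6. In Ppard-/- mice the highest were 54F (5.68 cpm), 52F (4.39 cpm) and 58M (3.07 cpm), with 1800, 1849 and 1227 cpm of muscle markers against at most 78.5 cpm in the other 5. Mouse 58M was only just above 74F (3.005 cpm), which had 46.7 cpm of muscle markers. The controls with the most muscle RNA did not have the most Cdh13. In wild-type controls 63F and 71F had 41.8 and 39.5 cpm, and 61F, with 558.8 cpm of muscle markers, had the most (80.1 cpm). In Ppard-/- controls 62F (7.58 cpm of muscle markers) had the most, 41.7 cpm, beside 39.3 in 60F and 38.6 in 44F. The part of muscle RNA in these values was not tested.

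Markers of T cells and Langerhans cells were lower after UV, as Cdh13 and Cdh4 were, and those of melanocytes were not. Of 4 melanocyte markers tested, 1 (Mlana, 3.71 on the log2 scale in Ppard-/- mice) was called higher in each genotype and 0 were called lower. All 6 T cell markers were lower in both genotypes, and their sum went from 106.9 to 186.6 cpm to 33.6 to 83.4 cpm in Ppard-/- mice and from 111.2 to 223.8 cpm to 24.0 to 60.9 cpm in wild-type mice. All 6 Langerhans cell markers were lower too, from 647.3 to 1180 cpm to 418.4 to 928.7 cpm in Ppard-/- mice and from 731.8 to 1231 cpm to 389.9 to 483.9 cpm in wild-type mice. The median log2 fold changes in Ppard-/- mice were -1.13 for the T cell and -0.78 for the Langerhans cell list. Of 5 hair follicle markers tested, Krt15, a keratin of the follicle bulge, fell by 5.18 in Ppard-/- mice, while Sox9 and Krt75 were higher. The part of any of these cells in the Cdh4 and Cdh13 values was not tested.

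**Figure D2:**
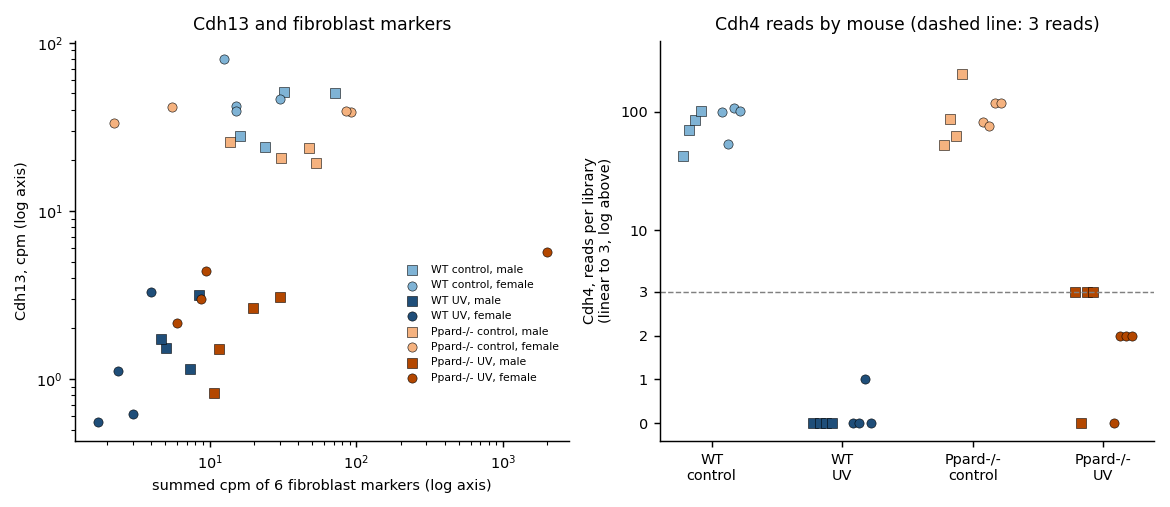
Left, Cdh13 in cpm against the summed cpm of 6 fibroblast markers, both on log axes, 1 point per mouse; right, Cdh4 reads per library on an axis that is linear up to 3 reads (dashed line) and logarithmic above. Every UV mouse lies below every control in Cdh13, 54F included, which stands alone at 1982 cpm of fibroblast markers, and no UV mouse exceeds 3 Cdh4 reads.

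Among the catenin genes, Ctnnb1 (beta-catenin) showed the largest change. Ctnnb1 was at 525 to 625 cpm (median 584) in Ppard-/- controls and at 738 to 965 cpm (median 829) after UV, with no overlap, and its log2 fold change was 0.51 (SE 0.06, interval 0.39 to 0.64, adjusted P value 1.37e-08, edgeR). In wild-type mice it went from 511 to 594 cpm (median 580) to 734 to 1041 cpm (median 842), a log2 fold change of 0.60 (SE 0.06). In Ppard-/- mice it was 0.53 without 54F and 0.42 in the 23 mice with low muscle markers, called in both. Taken by genotype and sex, the 4 ratios of the means lay between 1.36 and 1.57.

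Ctnna1 and Ctnnd1 rose slightly. In Ppard-/- mice, Ctnna1 was at 383 to 465 cpm (median 421) without and 443 to 503 cpm (median 449) with UV, and the groups overlapped. Its log2 fold change of 0.12 (SE 0.05, adjusted P value 0.0211) was called, but not in 7 of the 32 fits that left out 1 mouse, nor with edgeR's own filter (adjusted P value 0.117), nor in the 23 mice with low muscle markers (0.11, adjusted P value 0.124). Without 54F it was 0.14 and called. Wild-type mice went from 364 to 428 cpm to 435 to 523 cpm without overlap, at 0.26 (SE 0.05). Ctnnd1 was at 70.9 to 88.5 cpm (median 78.5) in Ppard-/- controls and at 81.3 to 105 cpm (median 90.8) after UV, and 5 of the 8 UV mice lay above all controls. The log2 fold change was 0.22 (SE 0.06, adjusted P value 0.00267), beside 0.21 (SE 0.06) in the wild-type mice, and it was 0.25 both without 54F and in the 23 mice with low muscle markers, called in both.

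Jup, the most abundant member, was not called. Ppard-/- controls had 2554 to 3415 cpm (median 3078) and UV mice 2222 to 3404 cpm (median 2621), and 3 of 8 UV mice were below every control. The log2 fold change was -0.17 (SE 0.08, interval -0.34 to -0.01) with an adjusted P value of 0.0574 in edgeR, which misses the threshold that DESeq2 passed (0.0333). Without 54F it was -0.13 (adjusted P value 0.164), and in the 23 mice with low muscle markers -0.18 (adjusted P value 0.158). In wild-type mice it was 0.09 (SE 0.08), from 2248 to 3069 cpm without to 2580 to 3274 cpm with UV.

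**Figure D3:**
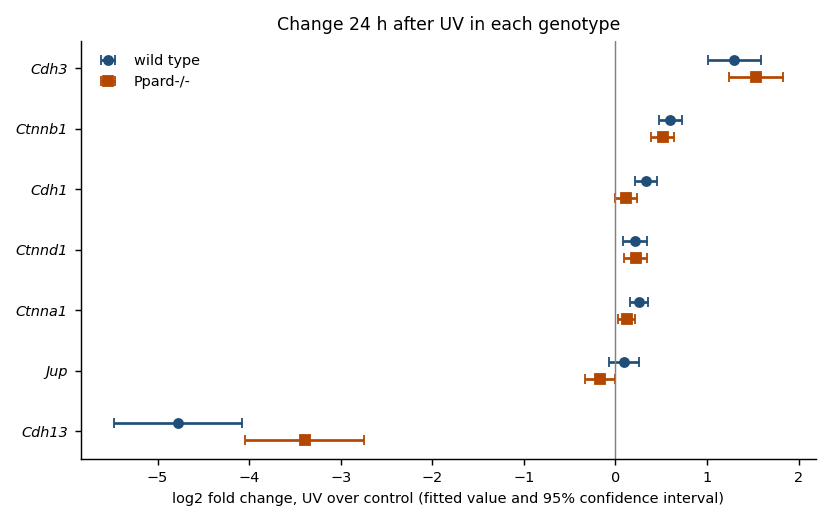
Fitted log2 fold changes of UV over control mice (horizontal axis) for 7 members in wild-type mice (circles) and Ppard-/- mice (squares), with 95% confidence intervals; Cdh4 is left out because its UV libraries lie at or under 3 reads. Cdh3 and Ctnnb1 lie to the right of 0 and Cdh13 to the left in both genotypes, and the interval of Jup includes 0 in wild-type mice and ends at -0.01 in Ppard-/- mice.

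Counted over the 7 members with a test, 5 were called after UV in Ppard-/- mice, of which Cdh3, Ctnnb1, Ctnna1 and Ctnnd1 were higher and Cdh13 was lower. The background was high. Of all genes tested, 70.8% were called in this comparison, 37.3% higher and 33.5% lower, and 71% were called in wild-type mice. In Ppard-/- mice 4 of the 8 members had no overlap between UV and control mice, against 35.1% of all genes, and 3 of 7 without Cdh4, whose loss after UV was among the values that chose it. For wild-type mice the count was 6 of 8 against 43.4%, where it is set in part by the choice of the members. Leaving out 54F gave 6 of 7 called, the 23 mice with low muscle markers gave 4, and the fit of male mice alone gave 3.

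Genotype was compared to ask whether the loss of PPARbeta alters these genes, alone or in the response to UV. Without UV, none of the 8 members was called between Ppard-/- and wild-type mice by edgeR, against 0.206% of all genes (32 genes). At an unadjusted P value under 0.05 there were 3, namely Cdh3 at -0.32 (SE 0.14, adjusted P value 0.517), Cdh13 at -0.61 (SE 0.28, adjusted P value 0.560) and Jup at 0.17 (SE 0.08, adjusted P value 0.566). The other 5 lay between -0.02 for Ctnnd1 and 0.24 for Cdh4. No member separated the genotypes without overlap, which 0.103% of all genes did, and DESeq2 and limma-trend also called none.

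After UV, again none of 7 members was called, against 3.31% of all genes. The 2 under an unadjusted 0.05 were Cdh1, at -0.12 (SE 0.06, adjusted P value 0.232), and Cdh13, at 0.77 (SE 0.32, adjusted P value 0.164). For Cdh1, 7 of the 8 Ppard-/- mice lay below the lowest wild-type mouse and the remaining one, at 1218 cpm, lay within the wild-type range. No member was free of overlap, as 0.187% of all genes were. Cdh13 was called in 1 of the fits that left out 1 mouse, when the wild-type female 59F was left out (1.2, adjusted P value 0.0278), since 59F had the most Cdh13 of the UV-treated wild-type mice. Without 54F, Cdh1 was -0.13 (adjusted P value 0.260) and Cdh13 0.63 (adjusted P value 0.301), and in the 23 mice with low muscle markers Cdh1 was -0.16 (adjusted P value 0.361) and Cdh13 0.95 (adjusted P value 0.218).

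The change with UV itself was then compared between genotypes, and none of the 7 members passed, against 0.765% of all genes. The nearest was Cdh13, whose fall was 1.38 smaller on the log2 scale in Ppard-/- mice (SE 0.43, interval 0.51 to 2.26, adjusted P value 0.0972), or 1.8 smaller with an adjusted P value of 0.0176 when 59F was left out, 1.23 smaller without 54F (0.132) and 1.73 smaller in the 23 mice with low muscle markers (0.0611). Cdh1 differed by -0.21 (SE 0.08, adjusted P value 0.157), or -0.23 without 54F, and Jup (-0.27, SE 0.11, adjusted P value 0.193) and Ctnna1 (-0.14, SE 0.06, adjusted P value 0.245) were also below 0. DESeq2 called 2 of the 7, Cdh1 at -0.25 (adjusted P value 0.0390) and Cdh13 at 1.35 (adjusted P value 0.0327), so whether these 2 genes differ between genotypes depends on the test. The intervals for Cdh3 (-0.17 to 0.64), Ctnnb1 (-0.26 to 0.09) and Ctnnd1 (-0.17 to 0.19) include 0. These 2 comparisons use the wild-type UV mice that guided the choice of members.

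Sex was the question of the study. Without UV, 1 of the 8 members was called, against 6.86% of all genes. Cdh1 was lower in females than in males by 0.21 on the log2 scale (-0.21, SE 0.06, adjusted P value 0.0332, edgeR), from 844 to 1106 cpm in wild-type males to 793 to 981 cpm in wild-type females, and from 1009 to 1155 cpm in Ppard-/- males to 849 to 1037 cpm in Ppard-/- females. Both pairs of groups overlapped. The call was lost in 13 of the 32 fits that left out 1 mouse and with library size as the only scaling (-0.08, adjusted P value 0.353), a scaling that moved the median of all genes in this comparison from -0.02 to 0.11. It was also lost in the 23 mice with low muscle markers (-0.17, adjusted P value 0.252). Cdh13 leaned the other way, higher in females by 0.61 (SE 0.28, adjusted P value 0.177). Its values did not overlap in Ppard-/- controls, with 33.5 to 41.7 cpm in the females and 19.2 to 25.6 cpm in the males, and they overlapped in wild-type controls, with 39.5 to 80.1 cpm and 23.9 to 51.1 cpm. The summed endothelial markers were 2.34 to 14.9 cpm in Ppard-/- and 4.06 to 5.79 cpm in wild-type control females. The males had 1.36 to 2.55 cpm and 1.46 to 3.61 cpm. Of these 6 genes, 5 were called higher in females, and the median log2 difference of the list was 2.28. In the 23 mice with low muscle markers, 4 of them were tested, 0 were called higher and the median was 0.48. The summed muscle markers had medians of 1279 cpm in Ppard-/- and 838.9 cpm in wild-type control females, against 40.5 and 132.9 cpm in the males. None of the 5 muscle genes was called, and their median log2 difference was 3.57. The part of either list in the sex differences was not tested.

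The change with UV did not differ between the sexes for any of the 7 members in edgeR, where 0% of all genes were called (1091 genes at an unadjusted P value under 0.05). DESeq2 called 22 genes and limma-trend 2, with no member among them. Cdh1 had the only unadjusted P value under 0.05, with a rise that was 0.19 larger in females (SE 0.08, adjusted P value 0.692). Its UV-treated groups were close to each other, at 1146 to 1193 cpm in wild-type males and 1113 to 1246 cpm in wild-type females.

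Ratios within a mouse, on the scale of cpm per kb, show how the make-up of the junction genes shifted. They are a description. There were 0.0249 to 0.0559 Cdh3 per Cdh1 (median 0.0389) in Ppard-/- controls and 0.0806 to 0.129 (median 0.101) after UV. Wild-type mice gave 0.0278 to 0.0831 (median 0.0556) and 0.0805 to 0.1195 (median 0.105), so the 2 groups overlapped slightly. Cdh1 thus remained the major classical cadherin RNA in every mouse on this scale. The ratio of Jup to Ctnnb1, the pair of catenins that share a binding site on the cadherin tail, was 3.46 to 4.72 (median 4.25) in Ppard-/- controls and 2.09 to 3.43 (median 2.51) after UV. For wild-type mice it was 3.10 to 4.47 (median 3.73) and 2.19 to 2.96 (median 2.69), with no overlap in either genotype. Ctnna1 kept close to Cdh1, with medians between 0.295 and 0.303 in all 4 groups.

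**Figure D4:**
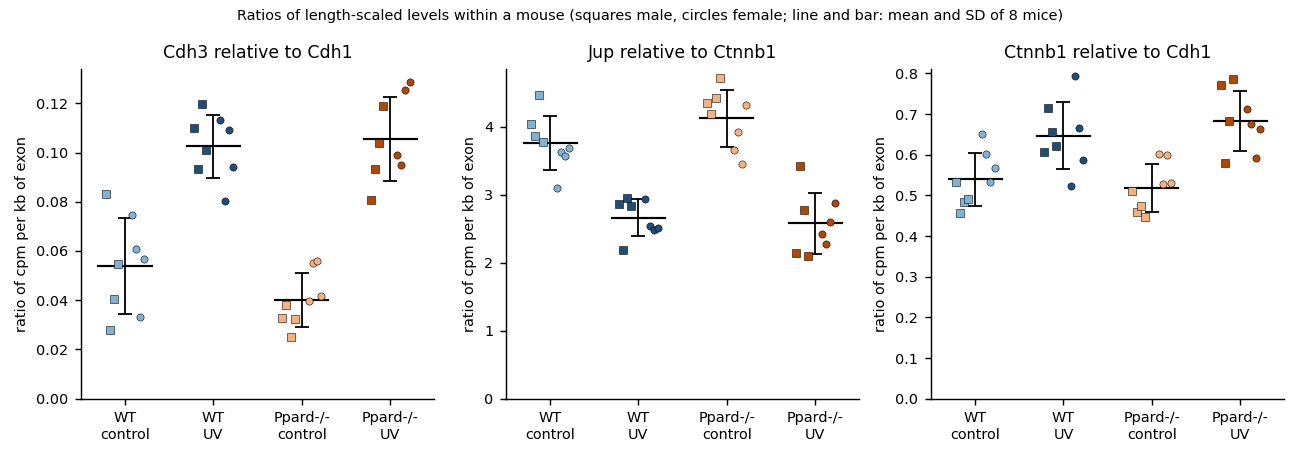
Ratios of cpm per kb of exon within each mouse (vertical axes, linear from 0) by genotype and treatment, with males as squares, females as circles, and the mean and SD of 8 mice as a line and bar. Cdh3 relative to Cdh1 is higher after UV, Jup relative to Ctnnb1 is lower without overlap, and Ctnnb1 relative to Cdh1 overlaps between treatments.

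Genes around the junction were read from lists written for this purpose, and those below are named by a fixed rule, the 3 largest calls of each list in Ppard-/- mice after UV. Counts of each list stand against the 70.8% of all genes called, and no count of calls moved by more than 1 without 54F or in the 23 mice with low muscle markers. Each gene named by this rule was also called, in the same direction, in both of those fits, except Twist1, which did not pass the filter in either, and Cdh15, which did not pass it in the 23 mice. Of 14 nectins and links to actin, 5 were higher, 2 lower and 7 not called. Afdn (afadin, which ties nectins to actin) fell by 1.25 on the log2 scale (SE 0.13), from a median of 470 cpm to 202 cpm. Lima1 (EPLIN, a link between alpha-catenin and actin) rose by 1.18 (SE 0.12), and Ajuba, a LIM protein of the junction, rose by 0.86 (SE 0.09). Each of these 3 had an adjusted P value of at most 3.16e-09. Of 15 other classical cadherins, 5 were tested, and Cdh15 and Cdh24 were called higher. Cdh24 went from a median of 3.62 cpm to 5.68 cpm. Cdh15 (muscle cadherin) passed the filter on plain library size and stayed under 1 cpm in all mice once scaled by TMM. It was tested in 31 of the 32 fits that left out 1 mouse, and its value turned to -0.03 in females alone. Of 6 other catenins and relatives, 4 were tested and 2 were lower, while Pkp4 (0.09) and Ctnnal1 (0.07) were not called. Ctnnd2 (delta-catenin) fell by 2.83 (SE 0.21), from a median of 6.88 cpm to 0.884 cpm, and Arvcf fell by 1.36 (SE 0.15).

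Regulators of Cdh1 went both ways. Of 9 transcription factors known to repress it, 7 were tested, with 3 higher, 3 lower and Zeb1 not called. Zeb2 rose by 2.84 (SE 0.53), from a median of 0.769 cpm to 7.11 cpm, and by 2.38 without 54F. Tcf4 fell by 0.89 (SE 0.18). Twist1 rose by 2.98 (SE 1.08) with a median of 0.0697 cpm after UV, and it no longer passed the filter without 54F. Of 9 genes known to promote the epithelial state, 5 were higher, 3 lower and Grhl2 not called. Elf3 rose by 2.38 (SE 0.21), from a median of 5.69 cpm to 28.0 cpm, and Ovol2 rose by 1.55 (SE 0.23), while the splicing factor Esrp1 fell by 1.15 (SE 0.07).

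Of 11 genes that cut or remove cadherins, 7 were lower, 2 higher and 2 not called. Numbl, an adaptor of endocytosis, fell by 2.11 (SE 0.16), and Psen2, a catalytic subunit of gamma-secretase, fell by 1.42 (SE 0.19). Src, the kinase that phosphorylates junction proteins, rose by 1.91 (SE 0.11), from a median of 19.2 cpm to 71.5 cpm. The median of the list was -0.23 on the log2 scale, beside 0.09 for all genes.

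In the list of beta-catenin degradation, which also holds the binding inhibitor Ctnnbip1, 6 of 10 genes were lower, 3 higher and Fbxw11 not called. Ctnnbip1, an inhibitor that keeps beta-catenin from its DNA-binding partners, fell by 2.80 (SE 0.19), from a median of 288 cpm to 38.9 cpm. Btrc, the ubiquitin ligase subunit that recognises phosphorylated beta-catenin, fell by 1.58 (SE 0.15), and the scaffold gene Axin2 fell by 1.10 (SE 0.08). Of 8 nuclear partners, 7 were tested, with 4 lower and 2 higher. Pygo1 fell by 1.88 (SE 0.34), Bcl9l by 1.21 (SE 0.10) and Tcf7l2 by 1.10 (SE 0.13). Of 11 known target genes, 7 were tested, 5 were lower, Axin2 being among them, and Ccnd1 (cyclin D1) was higher by 1.85 (SE 0.17, adjusted P value 9.97e-11), named here after its value was seen. Nkd2 fell by 3.35 (SE 0.45), Tnfrsf19 by 2.61 (SE 0.12) and Znrf3 by 2.32 (SE 0.13), and the last went from a median of 45.5 cpm to 8.78 cpm. The medians of the 3 lists were -0.34, -0.84 and -1.21.

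**Figure D5:**
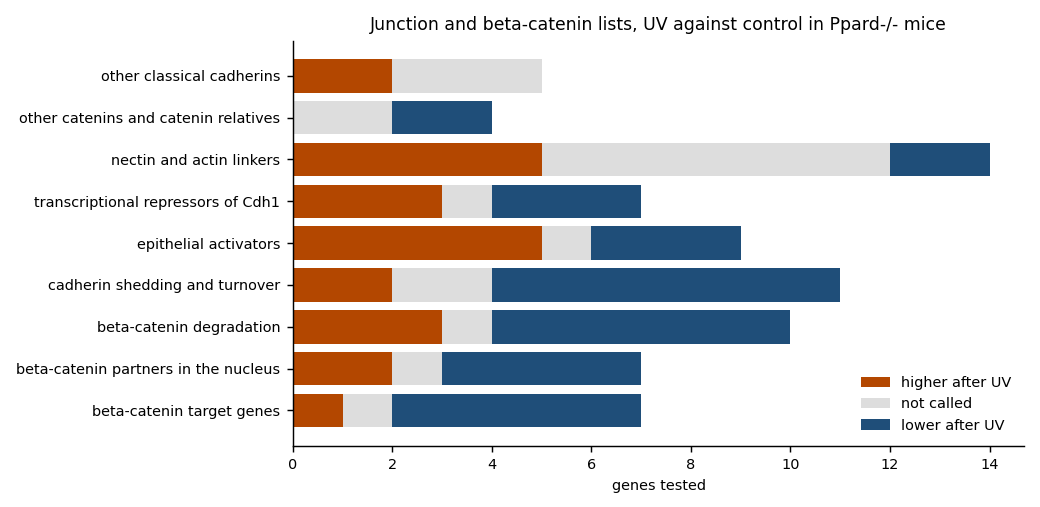
Number of genes tested in each list (horizontal axis) that were called higher, called lower or not called after UV in Ppard-/- mice. The list of target genes has 5 lower and 1 higher, and that of shedding and turnover 7 lower and 2 higher.

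Between genotypes, 2 of these list genes were called for their response to UV, against 0.765% of all genes, and none without UV, against 0.206%. The 2 were 1 of 4 other catenins and relatives and 1 of 10 genes tested in the beta-catenin degradation list, with 0 in each other list. Neither call held in all fits. Ctnnd2 fell by 4.06 (SE 0.23) in wild-type mice, from 5.69 to 11.03 cpm to 0.1497 to 0.760 cpm, and by less in Ppard-/- mice, with a difference of 1.23 (SE 0.29, adjusted P value 0.0378, edgeR). Btrc fell by 2.60 (SE 0.16) in wild-type mice, to 0.809 to 1.65 cpm, and the difference was 1.02 (SE 0.21, adjusted P value 0.0178). Without 54F these were 1.29 and 0.90, both called, and in the 23 mice with low muscle markers 1.34 (adjusted P value 0.0806) and 1.00 (adjusted P value 0.0742), neither called. The Ctnnd2 call was also lost in 16 of 32 fits that left out 1 mouse, with limma-trend and without a filter, and the Btrc call without a filter and with sex as an additive term. After UV, 5 list genes were called higher in Ppard-/- mice, against 3.31% of all genes called. Besides Ctnnd2 (1.08) and Btrc (0.82) these were Zeb1 (1.06), Tcf4 (0.64) and Psen2 (0.82), named here after their values were seen. They made up 1 of 4 other catenins and relatives, 1 of 10 genes of the degradation list, 2 of 7 repressors of Cdh1 and 1 of 11 shedding and turnover genes tested. Each other list had 0. Without 54F the calls of Zeb1, Tcf4 and Psen2 were lost, and in the 23 mice with low muscle markers none of the 5 was called. The loss was not particular to 54F. Of the 32 fits that left out 1 mouse, the call was lost in 22 for Zeb1, 24 for Tcf4 and 3 for Psen2.

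The genes most like each member in pattern were found by Pearson correlation of log2 cpm over the 32 mice, which share the UV and control groups, so that r mostly reflects the common difference between treatments. For Cdh3 they were Itgb4 (r = 0.984), the beta4 integrin of hemidesmosomes, and Rin1 (0.982). Cdh1 was followed by Zfp750 (0.918), a regulator of epidermal differentiation, and by Tjp1 (0.901), the tight junction scaffold. Cdh4 was followed by Mob3b (0.983) and Atxn10 (0.978), and Cdh13 by Sox6 (0.978) and Inpp4b (0.970), both of which were low after UV. Sox6 had a median of 28.2 cpm in Ppard-/- controls and 1.60 cpm after UV. Among the catenins, Ctnnb1 went with Tox4 (0.9754) and BC005537 (0.973), Ctnna1 with Pxk (0.894) and Copb2 (0.892), and Ctnnd1 with Tor1a (0.843) and Rala (0.818). Jup went with Evpl (0.870), which encodes envoplakin of the cornified envelope.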

How the data were processed

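The deposited values were whole-number read counts per gene for 32 mice, 1 library each. Per the labels and the study's methods, the authors trimmed single reads with cutadapt 1.8, removed ribosomal and low-complexity reads, aligned them with STAR 2.5.3a to GRCm38 and counted them with HTSeq 0.9.1. Library totals of reads without a gene (6.80% to 9.75%) stayed out of the fits. The 15546 genes that reached 1 cpm in any mouse were scaled by TMM and fitted in edgeR 4.0.16 (R 4.3.3) with a mean for each of 8 groups of genotype, treatment and sex, and contrasts averaged over the other factor. The alternatives were DESeq2 1.42.0, limma-trend 3.58.1 with a prior count of 1, other scalings, filters and models, each sex alone, each mouse left out and, added after seeing the data, only the 23 mice whose 5 muscle markers summed to 1000 cpm or less. Bounds used a floor of 3 reads per library. Symbols, lengths and coordinates came from GENCODE M21, which held 55141 of 55401 identifiers. The script steps were tested on simulated data. Mice of a group differed beyond sampling noise in all 48 pairs, so no library was counted as a duplicate. P values measure the spread between mice, and the reads carry no molecular identifiers.

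The members and the gene lists were chosen with earlier results of these data known. Genes of the lists were named by a fixed rule, the 3 largest calls per list after UV in Ppard-/- mice, with any list gene called for genotype without UV or for genotype by UV, and for each member the 2 genes with the highest correlation, of which 1 is not reported here. Member values between genotypes or sexes are given singly where the unadjusted P value was under 0.05.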

Additional observations from a re-analysis of the deposited data

Results flagged for a closer look

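Single mice lay far from the other 3 of their group of 4 in 8 of 63 sets of values, by the gap to the nearest mouse as a share of the range. For normally distributed values, chance alone exceeds the limit in about 1 of 20 sets. Cdh3 was 85.0 cpm in the UV-treated Ppard-/- male 58M, against 109 to 112 cpm in the others. Cdh4 was 0.0341 cpm in the UV-treated wild-type female 59F, which is 1 read against 0. In that set any single read would have been flagged, so the rate given does not apply to it. Cdh13 was 80.1 cpm in the wild-type control female 61F, against 39.5 to 46.3 cpm, and the same mouse had the lowest Jup of its group, 2248 cpm against 2624 to 2692 cpm. Ctnna1 was 503 cpm in the UV-treated Ppard-/- male 59M, against 443 to 449 cpm. The Ppard-/- control female 69F was high for both Ctnnd1 (81.1 cpm against 70.9 to 71.6 cpm) and Jup (3342 cpm against 2554 to 2628 cpm). Jup was 3274 cpm in the UV-treated wild-type female 57F, against 2580 to 2667 cpm. An interaction test of the UV response between genotypes called Ctnnd2 (1.23 on the log2 scale) and Btrc (1.02). The Ctnnd2 call was lost in 16 of 32 fits that left out 1 mouse, with limma-trend and without a filter, the Btrc call without a filter and with sex as an additive term, and both in the 23 mice with low muscle markers.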

How the results depend on the processing

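The count of members called after UV in Ppard-/- mice was 5 of 7 and ranged from 4 to 6 when single mice were left out. It was 3 in male mice alone, a fit with fewer mice. No member was called for genotype without UV or for sex by UV under any alternative run. Leaving out single mice gave 0 to 1 members for genotype after UV, 0 to 1 for genotype by UV and 0 to 1 for sex without UV. DESeq2 called 2 for genotype by UV. Cdh1, the member called for sex without UV, left a count of 0 with library size alone, with filterByExpr, with no filter on low counts and in the 23 mice with low muscle markers, an alternative added after seeing the data. Jup in Ppard-/- mice was called with library size alone (adjusted P value 0.0292), DESeq2 (0.0333), filterByExpr (0.0259) and sex as an additive term (0.0488). Cdh15 after UV turned to -0.0313 in female mice alone, and Zeb1 between genotypes after UV to -0.0521 in male mice alone. Ctnnd2 for genotype by UV was not called by limma-trend (adjusted P value 0.0525), without a filter (0.0866) or in 16 of 32 leave-outs, and Btrc was not called without a filter (0.0573) or with sex as an additive term (0.0598). The call of Ctnna1 after UV in Ppard-/- mice was lost without 34M, 52M, 58M, 59M, 66F, 67M or 74F, in each sex alone and in the 23 mice with low muscle markers. That of Ctnnd1 was lost in male mice alone (adjusted P value 0.0828). Cdh1 became called after UV in Ppard-/- mice without 54F, 59F, 61F, 69F, 72M or 73F. Jup became called without 38M, 52M, 57F, 57M, 59M, 60F, 61M or 74F. Cdh1 for sex without UV was lost without 44F, 44M, 52M, 54M, 56M, 58M, 60F, 61F, 62F, 63F, 67M, 73F or 74F. Cdh1 after UV in Ppard-/- mice, which became called in the fits named above, stands apart here. Of the 25 other member values at an unadjusted P value of 0.05 or more, 9 changed sign under some alternative and none was called. The causes were not tested. No paired analysis was run, because each mouse gave 1 library in 1 condition and the labels link no mice across groups. At these depths Cdh4 after UV could not be measured beyond its bound.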
